A study of Mus musculus with 7 samples.

Results

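The heparan sulfate 3-O-sulfotransferases are the enzymes that sulfate the 3-O position of glucosamine units within heparan sulfate chains. The mouse family has 7 genes, Hs3st1, Hs3st2, Hs3st3a1, Hs3st3b1, Hs3st4, Hs3st5 and Hs3st6, and all were found by symbol among the 48709 mouse genes of the deposited count table. RNA-seq was performed on kidneys of male mice, with 3 wild-type (WT) libraries and 4 libraries from Hs3st3a1;3b1 double knockout (DKO) mice. Each library carries its own number in its title, so each was taken as 1 animal, though the title does not say what the number stands for. Age, strain, the part of each gene that was removed, and whether the loss was limited to a cell type are not given in the labels or files. The replicate labels run 1, 2 and 4 in WT and 1 to 4 in DKO.

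Heparan sulfate is a chain of alternating sugars built on core proteins at the cell surface and in basement membranes, including that of the glomerulus, and sulfation lets it bind growth factors, proteases and their inhibitors. 3-O-sulfation is a late and rare step of its synthesis. Hs3st1 is known for making the site that antithrombin binds, while Hs3st3a1 and Hs3st3b1 are known for the site that herpes simplex virus glycoprotein D binds and for roles in epithelial organ growth.

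Libraries held 18330833 to 24259231 reads assigned to mouse genes. Markers of every kidney compartment listed were present: the summed podocyte markers were at 84.4 to 96.0 CPM (read counts scaled by library size) in WT and 99.7 to 128 in DKO, proximal tubule at 4090 to 4780 and 5350 to 6300, and loop of Henle at 5530 to 9240 and 3940 to 6210. Podocyte and proximal tubule sums did not overlap between the groups, and their part in the results was not tested. Nerve markers were near 0 (at most 0.205 CPM summed), while fat markers ranged from 55.8 to 375 CPM and red cell markers from 85.7 to 670.

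The knocked-out genes are close paralogues on chromosome 11 (GRCm38), and their sequences are shown first because they set what a short read can tell apart. Hs3st3a1 (ENSMUSG00000047759) lies on the plus strand at chr11:64435332-64522841 and Hs3st3b1 (ENSMUSG00000070407) on the minus strand at chr11:63885792-63922290, each with 2 exons. Their coding sequences were identical at 981 of 1122 aligned bases (87.4%). The likeness was uneven, at 74% in exon 1 and 98.4% in exon 2. In exon 2 both genes carried the same 401 bases in a row, at chr11:64520310-64520710 in Hs3st3a1 and at chr11:63889233-63889633 in Hs3st3b1, all of it coding. No other pair of family members came near this: their coding identity lay between 57.3% and 72.8%. The upstream end of the shared run reads as follows on the coding strand, with the base that differs in capitals, at chr11:64520250-64520369 (plus) and chr11:63889574-63889693 (minus).
Hs3st3a1: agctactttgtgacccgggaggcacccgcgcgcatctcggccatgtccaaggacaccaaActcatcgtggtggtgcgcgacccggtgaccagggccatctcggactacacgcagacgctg
Hs3st3b1: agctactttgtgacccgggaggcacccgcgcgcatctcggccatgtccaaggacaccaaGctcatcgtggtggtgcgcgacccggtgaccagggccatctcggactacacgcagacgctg

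These 120 bases differed at 1 position. The downstream end of the run, at chr11:64520651-64520770 (plus) and chr11:63889173-63889292 (minus), differed at 3 positions, again in capitals.
Hs3st3a1: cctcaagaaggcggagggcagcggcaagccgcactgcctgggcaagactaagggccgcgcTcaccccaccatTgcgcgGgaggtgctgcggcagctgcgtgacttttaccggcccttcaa
Hs3st3b1: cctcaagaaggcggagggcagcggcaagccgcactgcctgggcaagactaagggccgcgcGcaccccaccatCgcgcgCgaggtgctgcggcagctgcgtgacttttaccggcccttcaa

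A read that falls wholly inside the 401 bases has no letter by which to choose between the genes. A stretch of 38 bases was common to Hs3st3a1, Hs3st3b1 and Hs3st6 and is shown as the longest run that either knocked-out gene shared with another member.
Hs3st6, at chr17:24757989-24758026: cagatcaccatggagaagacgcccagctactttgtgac

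Of the 3890 windows of 50 bases along the Hs3st3a1 transcript, 1663 (42.8%) occurred in another annotated gene on either strand. Of these, 416 lay in exon 2 and were shared with Hs3st3b1, and 1247 lay in exon 1, which is covered over its full 1295 bases by F930015N05Rik, a gene annotated on the opposite strand. F930015N05Rik had no read in 6 libraries and 1 read in DKO 4. In Hs3st3b1, 416 of 4862 windows (8.56%) were shared, all with Hs3st3a1. Hs3st5 and Hs3st6 shared no window of that length, while Hs3st1 shared 1.34%, Hs3st4 2.74% and Hs3st2 10.2%, the last with the gene model Gm36736. The libraries were unstranded, and how the counting handled multiple matches and overlapping genes is not stated in the labels or files, so values of members that share windows carry this uncertainty, Hs3st3a1 the most by this measure.

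**Figure D1:**
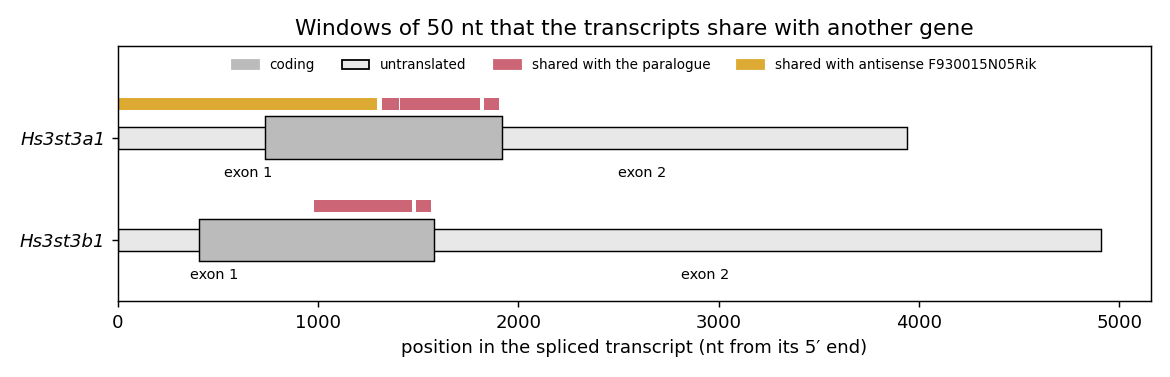
Exons of the Hs3st3a1 and Hs3st3b1 transcripts drawn to scale along the transcript in bases, with windows of 50 bases shared with the paralogue and those shared with the antisense gene marked. The 416 windows shared by the paralogues sit in exon 2 of both genes, and the 1247 shared with the antisense gene sit in exon 1 of Hs3st3a1.

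Hs3st3b1, Hs3st6, Hs3st1 and Hs3st3a1 were measured in kidney at low levels, and the remaining members hardly or not at all. In RPKM, which is CPM per kilobase of merged exons, the order of the mean level in WT was Hs3st3b1 at 0.879 ± 0.255, Hs3st6 at 0.865 ± 0.0956, Hs3st1 at 0.613 ± 0.297 and Hs3st3a1 at 0.233 ± 0.129 (SD, n = 3). Hs3st3b1 and Hs3st6 lay within each other's spread. Hs3st1 was below both in every WT library, though its range (0.279 to 0.848) overlapped theirs. Hs3st3a1 was also below Hs3st3b1 and Hs3st6 in every WT library, while WT 1 held more Hs3st3a1 (0.382) than Hs3st1 (0.279). In WT, 27.9% of the 15394 genes tested had a lower mean RPKM than Hs3st3b1, 27.5% than Hs3st6, 21.3% than Hs3st1 and 7.89% than Hs3st3a1. All counted reads of a gene were also set against only the windows found in no other gene, a setting added after the data were seen. Reads within shared windows were not taken out, so these levels are upper bounds if such reads were counted. Hs3st6 (1.0 RPKM in WT) then came before Hs3st3b1 (0.971), Hs3st1 reached 0.846 and Hs3st3a1 reached 0.413. This setting also replaced the merged exons by the windows of 1 transcript. Hs3st6 shared 0 of its 1171 windows, so its rise came from that change of length (from 1358 bases) and not from shared sequence. In Hs3st1, 22 of 1637 windows were shared.

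**Figure D2:**
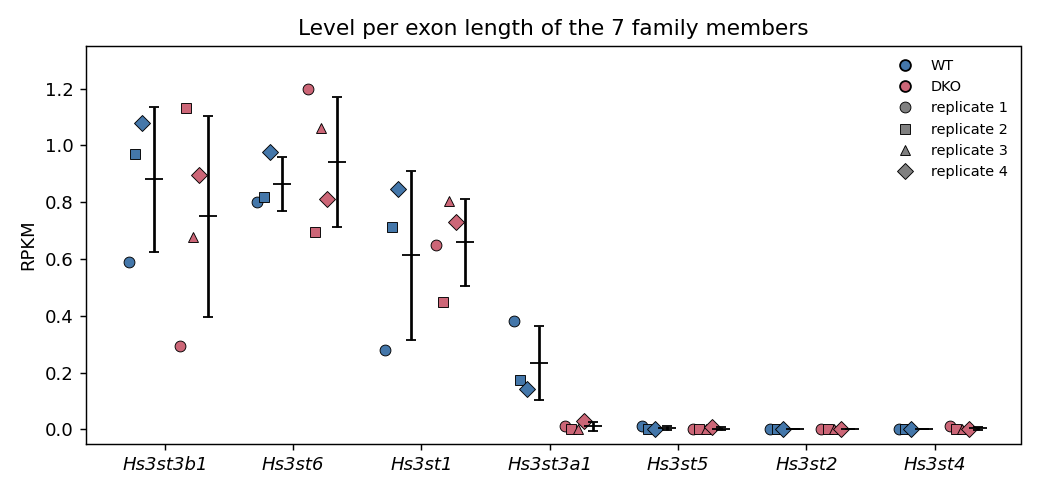
Level of each family member in RPKM in every library, with the mean ± SD of WT (n = 3) and DKO (n = 4) beside the points. Hs3st3b1, Hs3st6 and Hs3st1 lie in overlapping ranges, Hs3st3a1 lies lower, and Hs3st2, Hs3st4 and Hs3st5 lie at or near 0.

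Hs3st2, Hs3st4 and Hs3st5 were at the limit of counting. Hs3st2 (ENSMUSG00000046321, chr7:121391859-121501770) and Hs3st4 (ENSMUSG00000078591, chr7:123982869-124398989) are best known from the nervous system. Hs3st2 had 0 reads in all 7 libraries, which allows up to 0.0207 CPM over the pooled libraries (3 counts, covering counting error only and not reads lost to the windows it shares). Hs3st4 had 1 read in all, in DKO 1. Hs3st5 (ENSMUSG00000044499, chr10:36506814-36834397), whose product can make the antithrombin type of site among others, had 2 reads, 1 in WT 1 and 1 in DKO 4. No rise of these 3 members in DKO was detectable at this depth: 2 of the 4 DKO libraries held no read of any of them. They did not enter the test, nor the authors' filtered table, which held the other 4 members.

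Hs3st3a1, an enzyme lost by design in DKO, had reads in every WT library and almost none in DKO. WT libraries 1, 2 and 4 held 29, 13 and 12 reads, or 1.5, 0.687 and 0.567 CPM. DKO libraries 1 to 4 held 1, 0, 0 and 3 reads, or 0.044, 0, 0 and 0.122 CPM. The groups did not overlap, and WT 1 held 29 of the 54 WT reads of this gene. The mean was 0.919 ± 0.509 CPM in WT (SD, n = 3) and 0.0416 ± 0.0577 in DKO (SD, n = 4). Pooled over libraries, DKO held 0.0512 of the WT level (exact 95% binomial interval 0.0135 to 0.139, covering counting error only).

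Hs3st3a1 missed the threshold in the test over all genes, edgeR's quasi-likelihood test with Benjamini-Hochberg adjustment. Its log2 fold change, DKO against WT, was -4.15 ± 0.77 (SE), with a 95% interval from -5.84 to -2.47, an unadjusted p of 0.000207 that ranked 9 among 15394 genes, and an adjusted p of 0.163. None of the 4 tested members was called at an adjusted p under 0.05, nor was any of the 15394 genes (0.0%), although 3250 (21.1%) had an unadjusted p under 0.05 and DESeq2 called 672 (4.37%). Leaving out WT 4 brought the 3250 down to 1582, and leaving out DKO 2 to 2075. Among members, 1 of 4 was lower with groups that did not overlap, against 9.04% of all genes, and 0 of 4 were higher, against 8.34%. That 1 member is Hs3st3a1, which was removed by design and passed the filter on low counts through its WT reads. Nothing is therefore read from this count, nor from the p, the rank or the calls of Hs3st3a1. Calls for Hs3st3a1 depended on the setting: without the filter on low counts edgeR gave an adjusted p of 0.0104 (0.241% of genes called), and DESeq2 without independent filtering gave 0.0107 (3.5% called). In whole kidney, fewer cells that express a gene and less RNA per cell cannot be told apart. The summed podocyte and proximal tubule markers were higher in every DKO library than in any WT library, and those of the loop of Henle ranged lower in DKO with some overlap.

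Hs3st3b1, the paralogue also named in the knockout, was read at similar levels in both groups. WT libraries 1, 2 and 4 held 56, 90 and 112 reads, or 2.9, 4.76 and 5.29 CPM. DKO libraries 1 to 4 held 33, 106, 65 and 108 reads, or 1.45, 5.56, 3.33 and 4.40 CPM. DKO 1 was the lowest and DKO 2 the highest of all 7, so the DKO range enclosed that of WT. The means were 4.32 ± 1.25 CPM in WT (SD, n = 3) and 3.69 ± 1.75 in DKO (SD, n = 4). The log2 fold change was -0.23 ± 0.39 (SE; edgeR adjusted p = 0.755), with an interval from 0.465-fold to 1.56-fold. Without DKO 1 its sign turned, to 0.035.

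The 312 reads of Hs3st3b1 in DKO cannot check the genotype label, because the removed part is not known and the table gives 1 count per gene. If part of a transcript is still made, its reads count towards the gene. The reads of the knocked-out pair were split unevenly: Hs3st3a1 took 34.1% of them in WT 1 (exact 95% binomial interval 24.2 to 45.2%), 12.6% in WT 2 (6.89 to 20.6%) and 9.68% in WT 4 (5.10 to 16.3%). In DKO its share was 2.94%, 0, 0 and 2.70%, with upper bounds of 15.3, 3.42, 5.52 and 7.70%. WT 1 thus stood apart from the other WT libraries by its high share of Hs3st3a1, while its Hs3st3b1 and Hs3st1 were the lowest of the WT libraries.

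**Figure D3:**
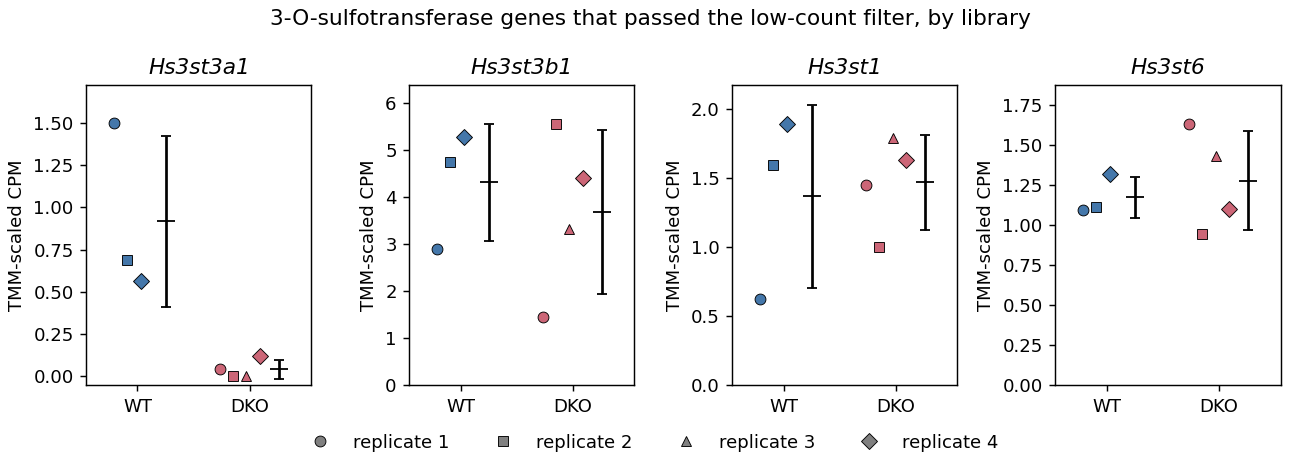
CPM of the 4 tested members in each library, with the mean ± SD of WT (n = 3) and DKO (n = 4). Hs3st3a1 is the member with no overlap between WT and DKO, and in Hs3st3b1, Hs3st1 and Hs3st6 the points of the groups overlap.

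The count table also has 24 rows for spike-in and transgene sequences that are no mouse genes, and these include markers often used in targeting cassettes. The row named Neo, for the neomycin resistance marker, had 0 reads in WT 1, 2 and 4 and 73, 75, 81 and 125 reads in DKO 1 to 4, or 3.21, 3.94, 4.15 and 5.10 CPM. The row named LacZ, for the bacterial beta-galactosidase reporter, had 1, 2 and 5 reads in WT and 21, 21, 16 and 32 in DKO. In both rows every DKO library was above every WT library. Which allele these reads come from is not given, and a count per row does not place them in either gene. The mean Neo level in DKO was 4.10 ± 0.778 CPM (SD, n = 4). DKO 1, the DKO library with the least Hs3st3b1, also had the least Neo, but the orders differed otherwise. The most Hs3st3b1 was in DKO 2 (5.56 CPM), the most Neo in DKO 4 and the least LacZ in DKO 3 (0.819 CPM).

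**Figure D4:**
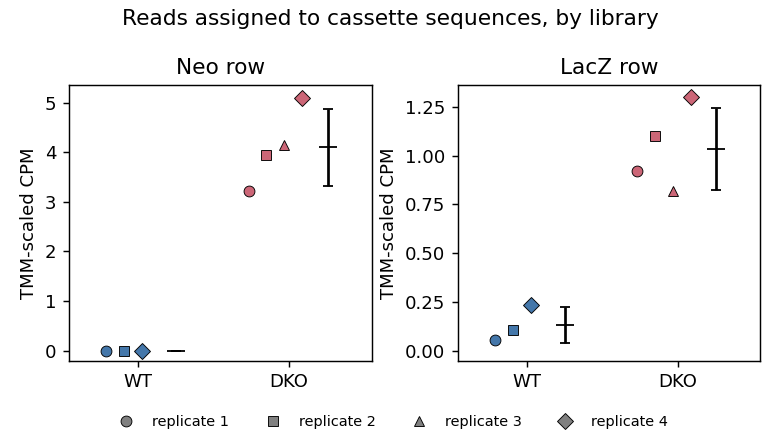
CPM of the Neo and LacZ rows in each WT (n = 3) and DKO (n = 4) library, with the mean ± SD beside the points. All 4 DKO libraries lie above the 3 WT libraries in both rows, with Neo at 3.21 to 5.10 CPM in DKO and at 0 in WT.

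Hs3st1 and Hs3st6 did not pass the test, and neither differed beyond the spread between libraries. Hs3st1 (ENSMUSG00000051022, chr5:39613935-39755475, minus strand) makes antithrombin-binding heparan sulfate. It was at 0.622, 1.59 and 1.89 CPM in WT 1, 2 and 4 and at 1.45, 0.997, 1.79 and 1.63 CPM in DKO 1 to 4. The low value of WT 1 widened the WT range, which enclosed that of DKO. The means were 1.37 ± 0.662 and 1.47 ± 0.343 CPM (SD, n = 3 and n = 4), with a log2 fold change of 0.10 ± 0.40 (SE; edgeR adjusted p = 0.902) and an interval from 0.581-fold to 1.98-fold. The sign turned without WT 1, to -0.26.

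Hs3st6 (ENSMUSG00000039628, chr17:24752988-24758684, plus strand) encodes a further member whose product, like those of several others in the family, can make the glycoprotein D type of site. It was at 1.09, 1.11 and 1.32 CPM in WT 1, 2 and 4 and at 1.63, 0.944, 1.43 and 1.1 CPM in DKO 1 to 4. WT libraries were close together and lay inside the DKO range. The means were 1.17 ± 0.13 and 1.28 ± 0.31 CPM (SD, n = 3 and n = 4). The log2 fold change was 0.12 ± 0.33 (SE; edgeR adjusted p = 0.857), with an interval from 0.657-fold to 1.8-fold. Without DKO 1, the highest library, the sign turned, to -0.021.

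The summed reads of all 7 members gave 7.80 ± 1.49 CPM in WT (SD, n = 3) and 6.49 ± 1.31 in DKO (SD, n = 4). By library the sum was 6.17, 8.14 and 9.08 CPM in WT and 4.62, 7.5, 6.55 and 7.30 in DKO, so the groups overlapped. Hs3st3b1 gave the largest share of family reads in every library but DKO 1, from 47.1 to 58.4% in WT and from 31.4 to 74.1% in DKO. In DKO 1 Hs3st6 gave more reads (37) than Hs3st3b1 (33), or 1.2 against 0.295 RPKM. The sum and the shares count reads and are not per length. Merged exons span 4911 bases in Hs3st3b1, 2230 in Hs3st1 and 1358 in Hs3st6. Per length, Hs3st3b1 and Hs3st6 were close in WT (mean 0.879 and 0.865 RPKM), so the shares do not rank the members by level.

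Genes around the knocked-out pair were also read. The pair's gene bodies lie 513041 bases apart with 5 genes between them, and 31 other genes lie within 1 Mb of either. Only 6 of these had reads enough to be tested, and 0 were called, with a median log2 fold change of 0.17 against 0.036 over all tested genes. Cox10, which encodes a heme synthesis enzyme of the mitochondrion and lies 40337 bases from Hs3st3b1, averaged 35.2 ± 8.88 CPM in WT against 41.1 ± 5.36 in DKO, a log2 fold change of 0.22 ± 0.20 (SE; edgeR adjusted p = 0.523). Cox10 was named after its values were seen, as a tested gene close to Hs3st3b1. The antisense transcript gene 2810001G20Rik, next to Cox10, was the 1 neighbour with an unadjusted p under 0.05. It was at 3.37, 4.76 and 7.23 CPM in WT and 3.6, 3.04, 2.92 and 3.67 CPM in DKO, so the groups overlapped at WT 1 (-0.63 ± 0.27 SE in log2 fold change, edgeR adjusted p = 0.221). With trends over gene length and GC content removed, its log2 fold change was -0.33 and its unadjusted p no longer under 0.05. No neighbour had an unadjusted p under 0.05 with limma-voom, with the replicate block, or without WT 4 or any 1 of the DKO libraries, and 3 had one without the low-count filter.

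Of the 28 other genes listed for heparan sulfate synthesis and editing, 23 were tested and 0 were called by edgeR (0.0% of all genes). At an unadjusted p under 0.05, 3 were higher and 3 lower in DKO, against 9.86% and 11.3% of all genes. Groups did not overlap in 4 higher and 3 lower of the 23, against 8.34% and 9.04% of all genes. Their fitted changes leaned slightly upward, with 15 of 23 (65.2%) above 0, against 53.2% of all genes. Their median log2 fold change was 0.23, against 0.036 over all genes. That lean was not seen when trends over gene length and GC content were removed, where the median was 0.013 (-0.015 over all genes). DESeq2 gave an adjusted p to 17 of the 23 and called 2 of the 23, against 4.37% of all tested genes, with or without an adjusted p.

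The enzymes that supply activated sulfate, PAPS, and carry it into the Golgi held both DESeq2 calls, in opposite directions. Papss2, which makes PAPS, was at 62.9, 122 and 51.6 CPM in WT and 165, 174, 180 and 128 CPM in DKO. Every DKO library exceeded every WT library, WT 2 coming nearest (1.04 ± 0.28 SE in log2 fold change, adjusted p = 0.163 by edgeR and 0.0227 by DESeq2). Slc35b2, a carrier of PAPS into the Golgi, was at 58.0, 60.5 and 92.6 CPM in WT and 54.3, 42.4, 35.7 and 40.6 CPM in DKO. Its groups did not overlap either (-0.70 ± 0.20 SE in log2 fold change, adjusted p = 0.163 by edgeR and 0.0387 by DESeq2). Slc35b3, the other PAPS carrier, was at 16.1 ± 3.28 CPM in WT and 11.2 ± 2.75 in DKO with overlapping groups (-0.52 ± 0.22 SE in log2 fold change, edgeR adjusted p = 0.210).

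In the linker that joins the chain to its core protein, 2 of 6 tested genes were fitted higher and 4 lower (median -0.15). B3gat3, which adds the last sugar of the linker, was at 58.0 ± 11.7 CPM in WT and 41.6 ± 2.82 in DKO without overlap (-0.48 ± 0.16 SE in log2 fold change, edgeR adjusted p = 0.167). Of the 5 chain polymerase genes, 4 were fitted higher (median 0.23). Extl1, an exostosin-like glycosyltransferase, was at 0.881, 0.793 and 1.47 CPM in WT and 2.46, 2.05, 1.69 and 1.79 CPM in DKO (0.92 ± 0.34 SE in log2 fold change, edgeR adjusted p = 0.178). All of its DKO values exceeded those of WT.

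Among the enzymes that modify the chain before 3-O-sulfation, 3 of 5 N-sulfation and epimerase genes were tested. Glce, the epimerase that converts glucuronic to iduronic acid, was at 6.38 ± 0.759 CPM in WT and 8.40 ± 0.771 in DKO without overlap (0.40 ± 0.18 SE in log2 fold change, edgeR adjusted p = 0.236). With the length and GC trends removed its log2 fold change was 0.25 and its unadjusted p no longer under 0.05. Hs6st1, the most abundant of the 2-O and 6-O sulfotransferases, was at 13.6 ± 3.99 CPM in WT and 15.1 ± 2.30 in DKO (log2 fold change 0.16), and Sulf2, an extracellular sulfatase that removes 6-O-sulfate, was at 9.93 ± 2.96 and 13.1 ± 0.779 (0.40). Ndst3, Ndst4, Hs6st3, Hpse and Hpse2 had too few reads to be tested.

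Of 13 syndecan, glypican and basement membrane core protein genes, 12 were tested and 0 called, with a median log2 fold change of -0.03. Groups did not overlap in 0 higher and 1 lower of the 12, against 8.34% and 9.04% of all genes. Gpc5, a glypican, was at 1.92 ± 0.342 CPM in WT and 1.12 ± 0.145 in DKO without overlap (-0.78 ± 0.30 SE in log2 fold change, edgeR adjusted p = 0.189). Gpc6, its relative, went the other way with overlapping groups, at 3.05 ± 0.951 and 5.08 ± 1.63 CPM (0.73 ± 0.31 SE in log2 fold change, edgeR adjusted p = 0.216). With the length and GC trends removed, the log2 fold change of Gpc6 was 0.56 and its unadjusted p no longer under 0.05. For Gpc5 it was -0.87, with an unadjusted p still under 0.05. Among 6 genes for proteins reported to bind 3-O-sulfated heparan sulfate, 0 were called by edgeR. DESeq2 gave an adjusted p to 2 of the 6 and called 1 of the 6, against 4.37% of all tested genes, with or without an adjusted p. That was Ppib, cyclophilin B, at 135, 120 and 222 CPM in WT and 96.3, 81.2, 74.3 and 106 CPM in DKO (-0.83 ± 0.22 SE in log2 fold change, adjusted p = 0.163 by edgeR and 0.0282 by DESeq2).

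**Figure D5:**
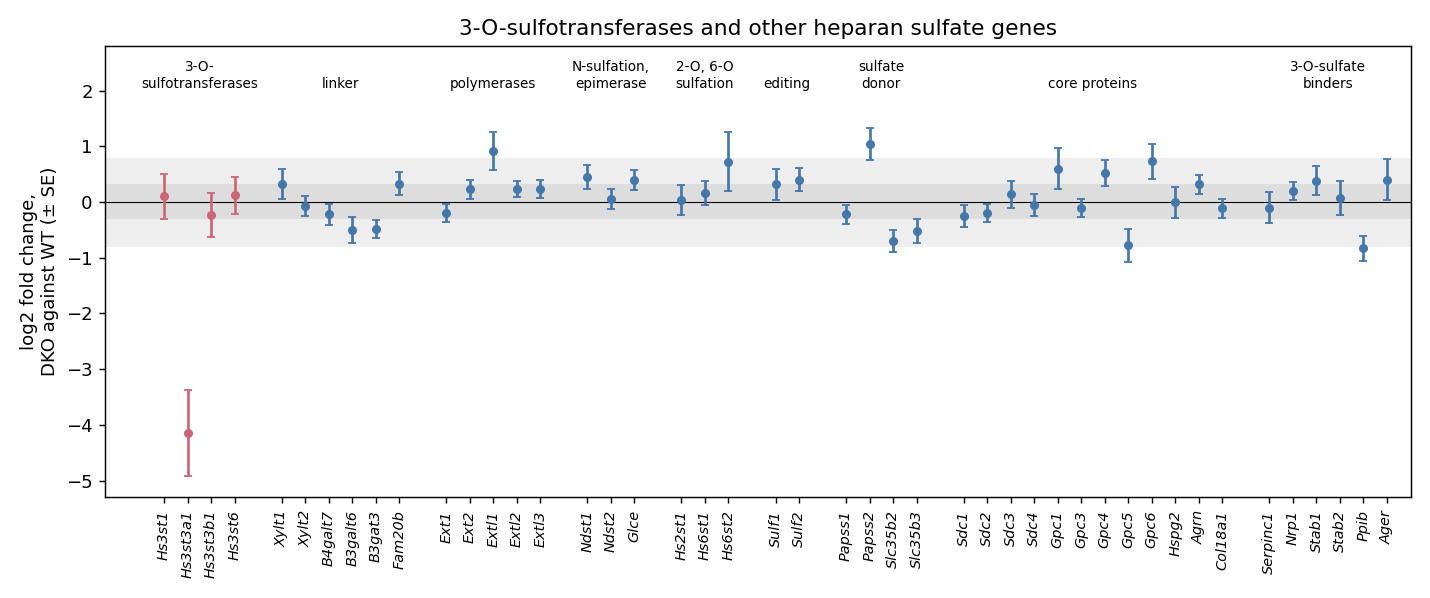
Log2 fold change of DKO against WT (edgeR, ± SE) for the tested family members and the listed heparan sulfate, core protein and binder genes, with grey bands for the middle 50% (-0.28 to 0.31) and 90% (-0.79 to 0.78) of all 15394 tested genes. Hs3st3a1, at -4.15, lies far below the bands, and the other 3 members lie inside the inner band.

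The genes whose log2 CPM followed each member most closely over the 7 libraries are given as a description, since the same libraries and depth enter both values. For Hs3st3a1 they were Rps4l (Pearson r = 0.986) and Nutf2-ps1 (r = 0.970), for Hs3st3b1 Nudt21 (0.981) and Gse1 (0.972), for Hs3st1 Gm10605 (0.971) and Tmem100 (0.942), and for Hs3st6 Gm6263 (0.980) and ENSMUSG00000048406 (0.972). Genes with r over 0.9 numbered 90 for Hs3st3a1, 13 for Hs3st3b1, 11 for Hs3st1 and 28 for Hs3st6. With only 7 libraries and 15394 tested genes, many high r values can arise by chance. Neither these counts nor the named genes were tested against that. Hs3st3a1 is the member whose groups did not overlap, and any gene lower in DKO shares part of its pattern.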

How the data were processed

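RNA was sequenced from whole kidney (Illumina Nextera XT unstranded libraries, per the labels' protocols), and STAR 2.5.2a, DESeq2, edgeR and limma stand in the submitters' processing notes with the builds GRCm38, mm10 and GRCh38, whose roles are not stated. The counter and annotation release are not stated in the labels or files. The authors deposited raw gene counts (48733 rows, of which 24 are no mouse gene and held at most 0.000697% of a library) and a filtered table of 18797 rows with a normalized signal, each count divided by 1 constant per library. The lowest maximum count kept was 6 and the highest dropped was 5.

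Tests used the deposited counts in edgeR 4.0.16 (R 4.3.3; TMM scaling, filterByExpr with minimum count 10 and minimum total 15, robust quasi-likelihood F test, two-sided), fitted on all 7 libraries over 15394 genes, with Benjamini-Hochberg adjustment and a threshold of 0.05. The SE of an edgeR log2 fold change was derived from the test, as its absolute value divided by the square root of F. The 95% intervals were built on this SE. CPM used TMM-scaled totals, and RPKM divided CPM by merged exon length (GENCODE M21, GRCm38). Sequences came from GENCODE M21 transcripts, and coding identity from pairwise alignment (Biopython 1.88). Protein sequences were not used here, so nucleotide identity took the place of the planned protein identity. Alternatives were DESeq2 1.42.0, limma-voom (limma 3.58.1), RLE scaling, no filter, length and GC offsets, a replicate block and leaving out each library. The fitting was tested on simulated data.

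The family members and gene lists were chosen with earlier results of these data known. Named genes were all 7 members, listed genes and neighbours with an unadjusted p under 0.05, otherwise the most abundant gene of a list, cassette rows, and the 2 genes most like each tested member. With each numbered library taken as 1 animal, p-values measure the spread between libraries, and that between animals only if this holds.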

Additional observations from a re-analysis of the deposited data

Results flagged for a closer look

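Of the 24 rows that are no mouse gene, 2 had more reads in every DKO library than in any WT library. The Neo row had 354 reads over the 4 DKO libraries and 0 over the 3 WT libraries, at least 81.6-fold higher in CPM against a limit of 3 counts over the WT group. The LacZ row had 90 reads in DKO and 8 in WT, a ratio of 7.78 (exact 95% binomial interval 3.78 to 18.6, covering counting error only). Which knocked-out allele carries either sequence is not given. The DsRed row had reads in 3 DKO libraries (4, 2 and 9) and none in WT, without separating the groups fully. The beta-lac row went the other way, with 11 reads in WT and 2 in DKO (ratio 0.126, interval 0.0135 to 0.576). No library of the 4 tested members lay apart from its group of 4 DKO libraries by Dixon's test at 95%, and groups of 3 were not tested.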

How the results depend on the processing

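Counts of 0 to 112 reads per library limit Hs3st1, Hs3st3a1, Hs3st3b1 and Hs3st6, and fewer than 3 reads in all limit Hs3st2, Hs3st4 and Hs3st5. Of 52 results of the 4 tested members under 13 alternatives, 47 kept direction and side of the threshold. The count of genes called over all genes was 0 by edgeR, 66 without the low-count filter, 672 by DESeq2 and 539 by DESeq2 without independent filtering, and 0 to 7 with 1 library left out (1 without WT 2 and 7 without DKO 1). Members called numbered 1, Hs3st3a1, without the filter (-4.15, adjusted p = 0.0104) and by DESeq2 without independent filtering (-4.36, adjusted p = 0.0107), against an adjusted p of 0.163 and a range of 0.0104 to 0.494 over its alternatives. DESeq2 with independent filtering gave no adjusted p for the 4 members. With 1 library left out, the log2 fold change of Hs3st3a1 ran from -5.36 to -3.63, and adjusted p from 0.104 to 0.494. Reversals were Hs3st1 without WT 1 (-0.26; range -0.26 to 0.41), Hs3st3b1 without DKO 1 (0.035; range -0.49 to 0.035) and Hs3st6 without DKO 1 (-0.021; range -0.021 to 0.24); the cause was not tested. Listed heparan sulfate genes called numbered 2 by DESeq2 and 1 without independent filtering. With all counted reads set against the windows found in no other gene, WT levels were 0.413 RPKM for Hs3st3a1 and 1.0 for Hs3st6. Hs3st6 shared no window, and its level moved only because 1 transcript replaced the merged exons as the length. Shared windows of 75 and 100 bases made 40.4 and 39% of Hs3st3a1, 7.05 and 6.28% of Hs3st3b1, 1.8 and 1% of Hs3st4 and 0% of Hs3st1, and those of 100 bases 8.12% of Hs3st2.

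A replicate block over numbers 1, 2 and 4 left 0 genes called, 0 members and 0 listed genes or neighbours, with log2 fold changes of -3.78 for Hs3st3a1 (adjusted p = 0.243), -0.30 for Hs3st3b1, 0.079 for Hs3st1 and 0.044 for Hs3st6. Same-numbered libraries correlated at -0.133, 0.164 and 0.135 in their deviations, and WT 1 and WT 4 correlated best with another number, so the numbers were not taken as pairs.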
